A study of Mus musculus with 4 samples.

Results

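The genes described here encode the Wnt signals of the mouse embryo and the proteins that receive or block them at the cell surface. The account concerns where the DNA-binding protein CTCF was found around them. There are 40 genes, namely 19 Wnt ligands, 10 Frizzled receptors, the co-receptors Lrp5 and Lrp6, 4 Dkk antagonists and 5 secreted Frizzled-related antagonists (Sfrp1, Sfrp2, Sfrp4, Sfrp5 and Frzb). All 40 were matched by symbol to RefSeq, and the window of a gene was its RefSeq span on mm10 with 50 kb on each side. CTCF peaks of 4 chromatin immunoprecipitation and sequencing (ChIP-seq) lists were joined into union sites when they shared at least 1 base. The windows held 434 of the 121759 union sites of the genome, and 56 of the 434 lay in the windows of 2 neighbouring members. Embryos gave posterior trunk at embryonic day (E) 10, and the other three tissues, brain and the distal and proximal parts of the forelimb, at E12.5. All were wild-type (WT) embryos of the B6CBAF1 strain, and all libraries were made with an antibody to CTCF. Posterior trunk came from about 30 pooled embryos staged E9.75 to E10 and contained the tailbud, the presomitic mesoderm and 2 to 3 pairs of somites, with the hindlimb buds avoided where this could be done. The brain sample pooled the telencephalons of 6 embryos. Both forelimb data sets were taken over from an earlier study and analysed again, per their titles, and the labels do not state how many embryos they came from.

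Wnt proteins are secreted, lipid-modified signals that bind Frizzled receptors together with Lrp5 or Lrp6. In the canonical branch this stabilises beta-catenin, which then activates target genes with Tcf and Lef factors. Secreted Frizzled-related proteins bind the Wnt proteins, whereas Dkk1, Dkk2 and Dkk4 bind the Lrp co-receptors. In mouse embryos Wnt3a maintains the progenitors of the tailbud and presomitic mesoderm, Wnt7a patterns the dorsal limb, Wnt5a is needed for outgrowth of limbs and trunk, and Wnt1 is needed for the midbrain. CTCF is a zinc-finger protein found at the borders of chromatin domains and the anchors of loops. Its peaks report occupancy of DNA and carry no information on the expression of the genes, so the tissue labels could not be set against marker genes.

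Sequences at hand were RefSeq promoter windows on GRCm38.p6, the assembly of mm10, from 250 bases before to 50 bases after a gene start. They held 29 windows for 26 of the 40 genes. CTCF sites touched 10 of the 29 windows, and 6 of these sites were called in all 4 tissues. Over all promoter windows of the table, 18.6% were touched by a site and 10.5% by a site called in all 4 tissues. The windows were searched on both strands for the letters CCANNAGNNGGC, a core of the known CTCF motif, and for CCNNNAGNNGGC, which has 1 fixed base fewer and finds every match of the first. The longer core was in 0 of the 29 windows and in 2.43% of all windows. The shorter core was in 4 of the 29 windows, those of Wnt1, Fzd5, Dkk2 and Fzd9, and in 8.61% of all windows. It was in 25.8% of the windows touched by a site of all 4 tissues and in 5.90% of the windows touched by none.

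Of the sequences below, those of Wnt1, Fzd5 and Dkk2 are shown for their match to the shorter core. Those of Frzb and Hif1an are shown for a CTCF site over the gene start. The windows are chr15:98789607-98789906 on the plus strand for Wnt1, chr1:64737701-64738000 on the minus strand for Fzd5, chr3:132085042-132085341 on the plus strand for Dkk2, chr2:80447347-80447646 on the minus strand for Frzb and chr19:44562604-44562903 on the plus strand for Hif1an. Hif1an is not a member, but its start lies under the site of the Wnt8b window that ranks first among the ligands. All are written 5′ to 3′ in the direction of transcription. Capitals mark the shorter core for Wnt1, Fzd5 and Dkk2, and the 21 bases centred on the summit for Frzb and Hif1an.
Wnt1: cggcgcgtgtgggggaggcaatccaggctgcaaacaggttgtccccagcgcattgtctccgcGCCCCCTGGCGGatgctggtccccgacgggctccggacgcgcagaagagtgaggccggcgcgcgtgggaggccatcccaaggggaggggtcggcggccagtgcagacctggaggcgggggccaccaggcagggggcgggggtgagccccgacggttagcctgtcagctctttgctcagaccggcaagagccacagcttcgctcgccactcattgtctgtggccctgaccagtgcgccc
Fzd5: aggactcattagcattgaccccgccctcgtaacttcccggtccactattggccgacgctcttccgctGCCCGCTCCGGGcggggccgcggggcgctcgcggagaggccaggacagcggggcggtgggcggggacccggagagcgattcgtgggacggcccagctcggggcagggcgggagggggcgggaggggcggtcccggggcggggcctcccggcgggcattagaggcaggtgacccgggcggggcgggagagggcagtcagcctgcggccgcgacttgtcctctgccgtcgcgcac
Dkk2: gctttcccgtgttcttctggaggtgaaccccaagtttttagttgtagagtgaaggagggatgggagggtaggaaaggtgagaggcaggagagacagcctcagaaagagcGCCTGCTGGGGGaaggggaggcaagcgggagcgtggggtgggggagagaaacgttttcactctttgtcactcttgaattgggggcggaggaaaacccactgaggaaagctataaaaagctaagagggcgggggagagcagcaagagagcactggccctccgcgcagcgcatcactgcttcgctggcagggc
Frzb: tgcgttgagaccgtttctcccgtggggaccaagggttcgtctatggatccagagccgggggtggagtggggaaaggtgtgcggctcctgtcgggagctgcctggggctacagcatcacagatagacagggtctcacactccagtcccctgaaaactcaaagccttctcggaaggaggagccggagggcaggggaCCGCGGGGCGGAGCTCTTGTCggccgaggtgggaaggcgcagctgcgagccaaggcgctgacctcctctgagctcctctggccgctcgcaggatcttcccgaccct
Hif1an: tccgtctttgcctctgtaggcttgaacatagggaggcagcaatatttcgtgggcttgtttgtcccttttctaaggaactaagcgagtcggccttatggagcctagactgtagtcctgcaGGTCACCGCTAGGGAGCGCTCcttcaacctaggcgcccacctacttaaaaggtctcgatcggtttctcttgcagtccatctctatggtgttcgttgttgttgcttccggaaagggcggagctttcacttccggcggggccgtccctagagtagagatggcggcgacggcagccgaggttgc

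In the Wnt1 window the core lay on the strand opposite to transcription, where it reads CCGCCAGGGGGC, and its middle was 8.5 bases from the summit of a site called in all 4 tissues. The core of the Fzd5 window was 340.5 bases from the summit of the site that touched the window, outside that site. Dkk2 had a core in its window and no CTCF site there in any list, and the same was true of Fzd9. A match is a description of letters, and windows without one may hold other forms of the CTCF motif.

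CTCF occupancy around the Wnt genes was mostly shared between the tissues. Of the 434 member sites, 222 were called in all 4 tissues, which is 51.2%, against 42.4% of all union sites and 45.4% of the sites in the windows of all protein-coding genes. A further 74 were called in 2 or 3 tissues, and 138 in 1 tissue only, or 31.8% against 39.6% of all union sites. In the windows of all protein-coding genes, 36.7% of sites were called in 1 tissue only. Posterior trunk had peaks at 404 member sites, brain at 275, distal forelimb at 266 and proximal forelimb at 263. The lists themselves held 106662, 74127, 64793 and 63873 peaks, in the same order. From the lowest background in each list, relative depths were 2.21, 2.02, 1 and 1.08. Each tissue had 1 library, so no difference between tissues below has a replicate check, no p-value is given, and a site called in 1 tissue means called in that library only. In bulk tissue, binding in fewer cells and weaker binding per cell cannot be told apart. Posterior trunk was also the only E10 sample, so tissue and stage cannot be told apart in sites called in or missing from trunk only. Thinning scaled each library to the lowest background of the 4 and kept peaks with a −log10 p of at least 5. It left 214 sites called in all 4 tissues and 80 in 1 tissue. With that cutoff and no thinning, an alternative chosen after seeing the data, the counts were 219 and 128. The thinned sites were 59.4% and 22.2% of the member sites, against 51.8% and 29.6% of all union sites in that setting.

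**Figure D1:**
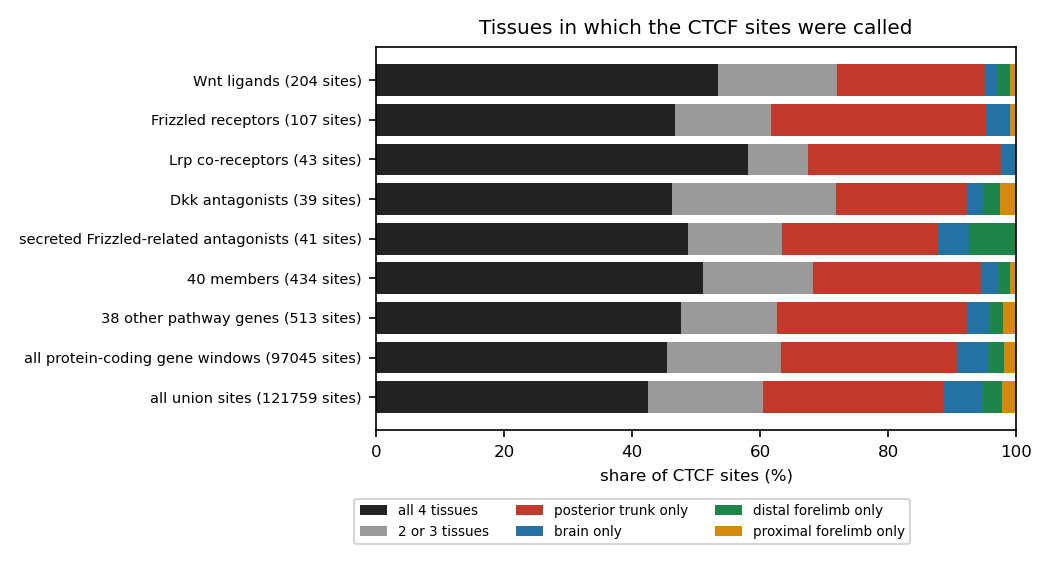
Share of CTCF sites (%) by the tissues in which they were called, for the 5 groups of members, the 40 members together, 38 other Wnt pathway genes, all protein-coding gene windows and all union sites. Bars run to 100%, and the black part, sites called in all 4 tissues, is 51.2% for the members and 42.4% for all union sites.

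Every member window held at least 5 sites, and Sfrp1 was the only member with no site called in all 4 tissues. The median was 11 sites per window, against 10 over the 21887 protein-coding genes, with medians of 8.78 and 7.23 sites per 100 kb of window. Windows without any site called in all 4 tissues made up 2.5% of the members and 12.8% of all protein-coding genes. The latter share includes 1376 windows that held no site of any pattern, whereas no member window was empty. Windows with the most sites were those of Lrp5 with 27, Wnt6 with 23, Wnt5b with 22, Wnt9a with 21, and Wnt3a and Fzd2 with 20 each. The fewest were 5 each at Wnt2 and Wnt2b. Long genes have longer windows, so density gives another order: Fzd2 led with 19.3 sites per 100 kb, followed by Wnt6 with 17.6 and Wnt10b with 16.7, and Wnt2 came last with 3.39.

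**Figure D2:**
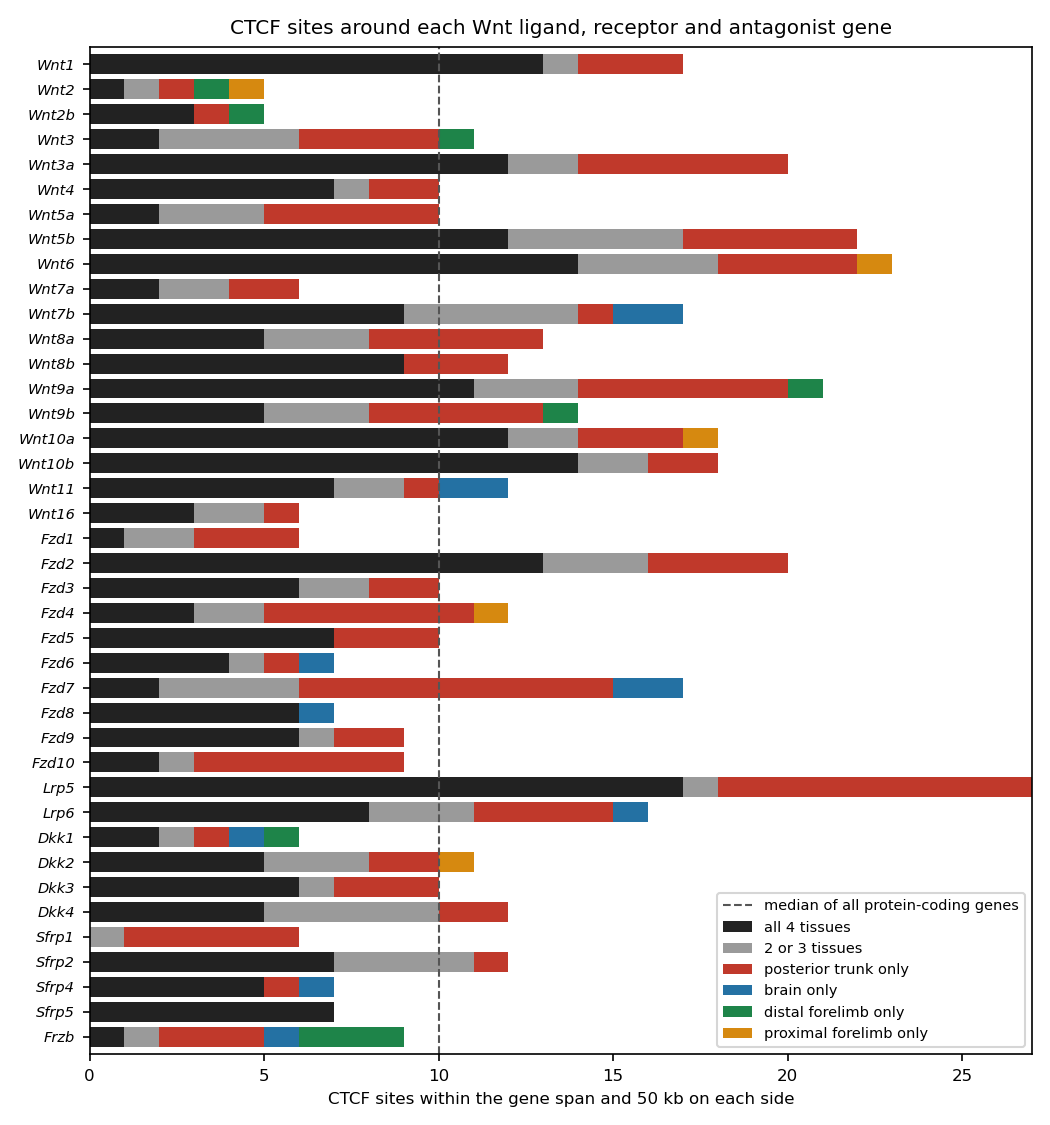
Number of CTCF sites in the window of each of the 40 genes (gene span with 50 kb on each side), coloured by the tissues in which they were called. The dashed line is the median of 10 over all protein-coding genes, and Sfrp1 is the gene without a black part.

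Sharing was about the same at each distance from the genes. Sites that overlapped a member span numbered 111, of which 49.5% were called in all 4 tissues. The shares were 54.3% of 94 sites under 10 kb from the nearest member span, 49.5% of 99 sites at 10 to 25 kb and 51.5% of 130 sites at 25 to 50 kb. Gene spans and flanks had about the same density in members, with 9.34 and 9.48 sites per 100 kb, against 6.17 and 7.19 over all protein-coding genes. For the 26 genes with a listed start, 120 pairs of gene and site lay upstream of the span and 122 downstream, of which 53 and 68 were called in all 4 tissues. In 7 members no site overlapped the span, namely Wnt2b, Wnt7a, Fzd9, Fzd10, Dkk4, Sfrp4 and Sfrp5, or 17.5% against 31.3% of protein-coding genes. The latter share includes the 1376 genes with no site in their window. Median spans were 20.2 kb in members and 17.2 kb over all protein-coding genes.

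**Figure D3:**
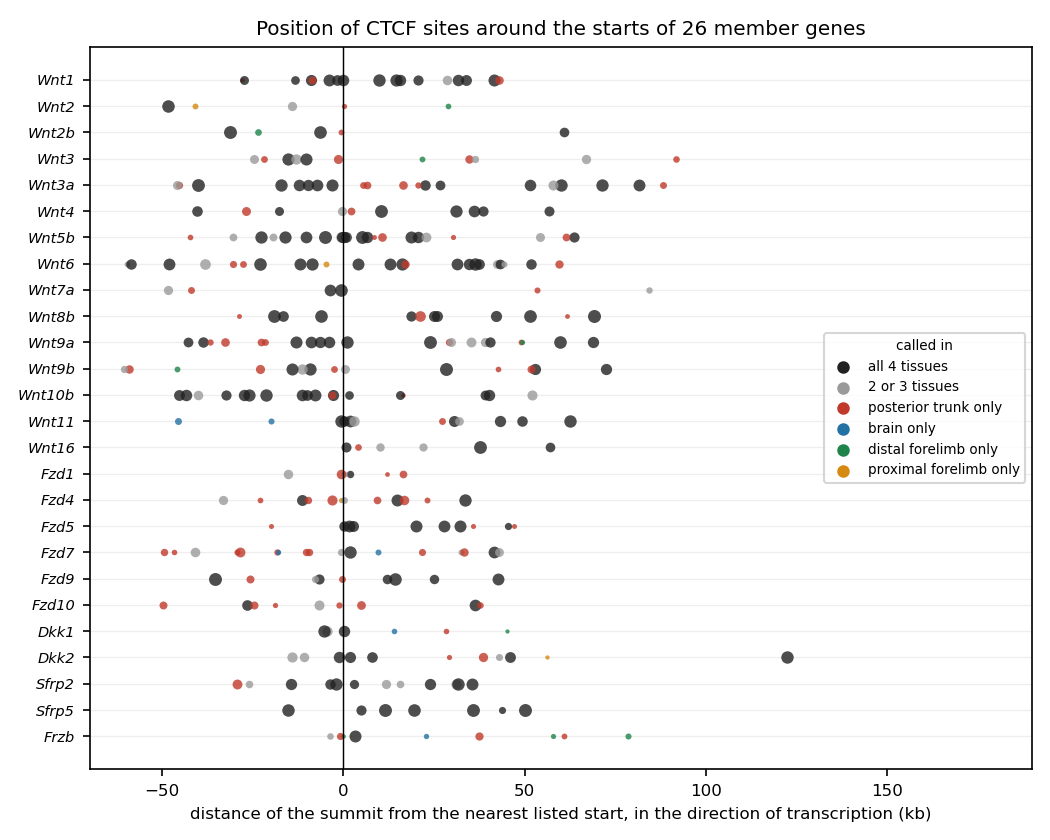
Distance of each CTCF summit from the nearest listed gene start (kb, negative upstream in the direction of transcription) for 26 members. Colour gives the tissues, and larger points have a higher rank percentile in the list where they ranked best. Sites of all 4 tissues stand on both sides of the starts of Wnt1, Wnt3a, Wnt5b and Wnt10b.

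The 19 Wnt ligand genes had 204 sites, of which 109, or 53.4%, were called in all 4 tissues. Shared sites are ordered here and in the groups that follow by the lowest of their 4 percentiles. By that order the first of the ligands was chr19:44562366-44563015, downstream of Wnt8b, a ligand of the cortical hem, and over the start of Hif1an. It stood at rank percentile 99.8 (trunk), 99.4 (brain), 99.4 (distal) and 99.2 (proximal), where 100 is the strongest peak of a list by the authors' p, and trunk, distal and proximal stand for posterior trunk, distal forelimb and proximal forelimb. The summit letters are those in capitals in the Hif1an sequence. Next came chr3:104992500-104993343 upstream of Wnt2b, at percentiles 95.7 (trunk), 97.1 (brain), 97.8 (distal) and 98.5 (proximal). The third, chr18:34538081-34538745 near Wnt8a, was at 96.7 (trunk), 95.2 (brain), 96.2 (distal) and 95.5 (proximal). Here and below, a site near, upstream or downstream of a gene lies in its window, up to 50 kb from its span. Such a site may lie in another gene. These percentiles describe peaks within their own list and are not differences in occupancy between tissues.

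Ligand genes that lie side by side shared many of their sites. Wnt3a and Wnt9a point away from each other on chromosome 11 with 16.1 kb between their spans, and that gap held 4 sites, all called in all 4 tissues. The one nearest to Wnt3a, chr11:59293554-59294080, lay 2.80 kb upstream of that gene, at percentiles 84.5 (trunk), 76.6 (brain), 50.6 (distal) and 62.9 (proximal). The other three were chr11:59297921-59298353, chr11:59300167-59300710 and chr11:59302709-59303118, and their lowest percentile in any list was 61.8. Within the span of Wnt3a were 6 sites, and 4 of them were called in posterior trunk only, at trunk percentiles between 15.2 and 38.03. The other two were called in all 4 tissues. Wnt9a had 2 sites in its span, both of all 4 tissues. The one farther from its start, chr11:59330339-59331148, ranked at 97.1 (trunk), 95.8 (brain), 85.96 (distal) and 84.1 (proximal).

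Wnt10b and Wnt1 also point away from each other, on chromosome 15, 11.7 kb apart. Their gap held or touched 5 sites, and 4 were called in all 4 tissues. The site chr15:98789390-98789944 covered the start of Wnt1 and held the core printed above, at percentiles 76.6 (trunk), 76.5 (brain), 72.7 (distal) and 76.4 (proximal). A site 3.66 kb upstream of the Wnt1 span, chr15:98785643-98786193, ranked at 81.9 (trunk), 75.4 (brain), 71.2 (distal) and 66.2 (proximal). The remaining trunk-only site of the gap, chr15:98781208-98781440, was weak, with an authors' fold of 2.35. Of the sites in both windows, 12 of 15 were called in all 4 tissues. For Wnt6 and Wnt10a on chromosome 1 this held for 12 of 18, for Wnt3a and Wnt9a for 8 of 14, and for Wnt9b and Wnt3 for 2 of 9.

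Starts of ligand genes differed in whether CTCF was close. Among the 26 members with a listed start, 16 had a site with its summit within 1 kb of a start, 23 sites in all, and 10 of the 23 were called in all 4 tissues. No such count was made over other genes, so these numbers have no background beside them. Wnt7a had the strongest of the 23, chr6:91411615-91412208, 563 bases upstream, at percentiles 88.98 (trunk), 93.4 (brain), 93.1 (distal) and 89.7 (proximal). Wnt11 had a pair of sites of all 4 tissues around the later of its 2 listed starts, of which chr7:98837865-98838336 ranked at 79.8 (trunk), 86.7 (brain), 87.5 (distal) and 89.5 (proximal). Wnt5b has 3 listed starts, and all 3 had a site. The site chr6:119449082-119449479 covered the innermost start and ranked at 72.3 (trunk), 57.5 (brain), 64.8 (distal) and 60.99 (proximal). The site upstream of its middle start, chr6:119467681-119468021, was called in all tissues but distal forelimb. At the outermost start chr6:119543332-119543707 and chr6:119544585-119545013 were called in all 4 tissues. Wnt4 had chr4:137277114-137277371 just upstream, called in posterior trunk and distal forelimb, at 43.8 (trunk) and 39.9 (distal). Wnt9b had chr11:103749283-103749999 over its start, called in the same pair of tissues, at 41.5 (trunk) and 6.88 (distal). Wnt16 had chr6:22288645-22289089, at 41.3 (trunk), 49.3 (brain), 54.3 (distal) and 55.2 (proximal). Starts of Wnt2 and Wnt2b had a weak trunk-only site each, chr6:18030036-18030299 and chr3:104962344-104962566. No summit lay within 1 kb of the listed starts of Wnt3, Wnt3a, Wnt6, Wnt8b, Wnt9a or Wnt10b.

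**Figure D4:**
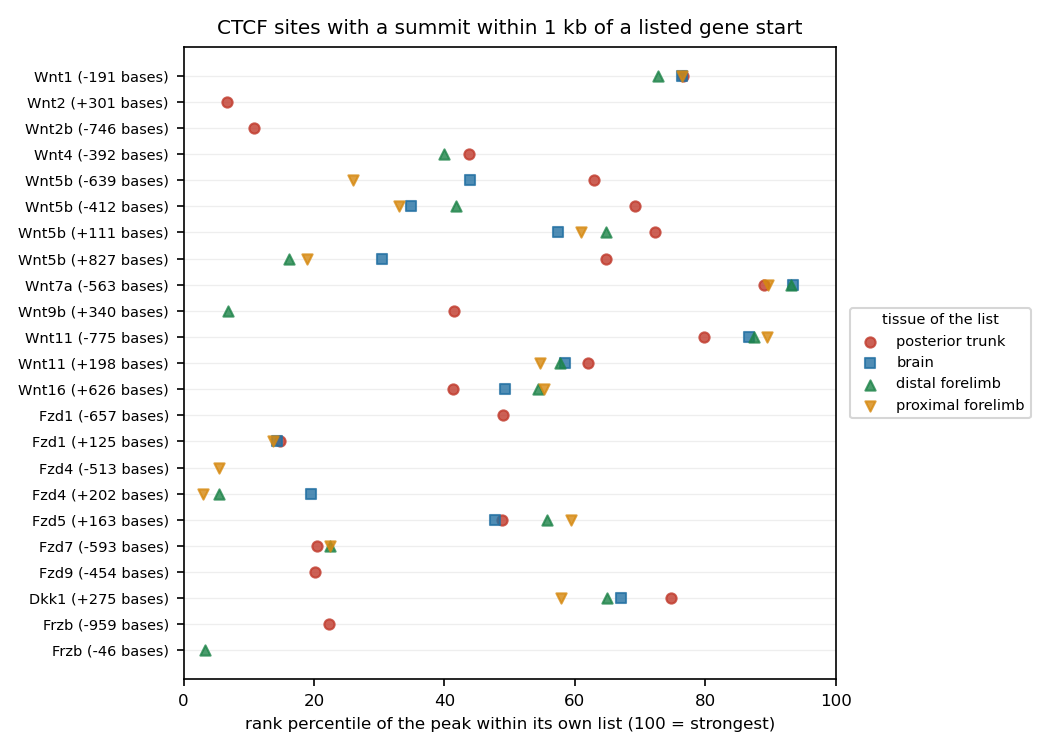
Rank percentile within each list (100 is the strongest peak) of the 23 sites with a summit within 1 kb of a listed start, labelled by gene and distance of the summit from the start (bases, negative upstream). Markers are the 4 tissues, and a missing marker means no peak in that list. Wnt7a and Wnt11 hold the highest values, and the sites of Fzd1, Fzd4, Fzd7, Fzd9 and Frzb stay under 50.

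The gene of Wnt5a, which drives outgrowth of limb and trunk, had 10 sites, of which only 2 were called in all 4 tissues. The stronger, chr14:28507465-28508005 in the gene, ranked at 93.02 (trunk), 95.2 (brain), 96.2 (distal) and 93.8 (proximal). Also in the gene was chr14:28510381-28510609, missing from posterior trunk only, at 21.7 (brain), 30.1 (distal) and 18.6 (proximal). Of all union sites, 0.289% were missing from trunk only, and 3 member sites were. The site chr14:28538929-28539336, 11.5 kb from the gene, was missing from brain only, at 63.4 (trunk), 21.3 (distal) and 4.83 (proximal). Posterior trunk alone had 5 sites in this window.

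Wnt2, a ligand with 1 site called in all 4 tissues, had a site in each of several other patterns. The site chr6:18044353-18044692, 11.6 kb upstream of the gene and missing from trunk only, ranked at 6.798 (brain), 11.4 (distal) and 45.1 (proximal). Its whole pileup, the reads over the summit, was 19 in distal forelimb, against 40 in proximal forelimb. Inside the gene was a site of distal forelimb only, chr6:18001447-18001673, with an authors' fold of 3.44. A site of proximal forelimb only, chr6:18071325-18071530, lay farther upstream, at 11.6.

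The span of Wnt7b had 6 sites and none of all 4 tissues, although chr15:85582920-85583953, 1.10 kb outside it, was called in all of them at 91.2 (trunk), 91.6 (brain), 88.96 (distal) and 87.5 (proximal). A pair of the 6 was called in brain only, chr15:85555744-85555962 and chr15:85561469-85561693, at brain percentiles 12.98 and 12.8. The site chr15:85577982-85578270 was called in brain and proximal forelimb, chr15:85572388-85572774 in trunk and brain, and chr15:85538340-85538703 in all but proximal forelimb. The sixth, chr15:85570408-85570630, was trunk-only.

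The 10 Frizzled receptor genes had 107 sites, of which 50, or 46.7%, were called in all 4 tissues. Trunk-only sites numbered 36, or 33.6%, against 28.4% of all union sites. The first shared site was chr11:102578558-102579133 in the window of Fzd2, at 99.8 (trunk), 99.2 (brain), 98.3 (distal) and 99.5 (proximal). It was followed by chr14:65169903-65170628 near Fzd3, a receptor of axon guidance, at 99.3 (trunk), 98.6 (brain), 97.9 (distal) and 97.7 (proximal), and chr15:39078300-39079111 near Fzd6, a receptor of planar cell polarity, at 98.4 (trunk), 99.3 (brain), 98.7 (distal) and 96.9 (proximal). The summits of the Fzd2 and Fzd6 window sites lay in the spans of Gm11627 and Cthrc1, in that order. Most Frizzled genes have a short span, and 15 of the 107 sites overlapped it. Fzd5 had 3 sites of all 4 tissues in its span, and Fzd8 and Fzd2 each had a pair of them. In Fzd8 these were chr18:9213236-9213907, at 71.2 (trunk), 77.9 (brain), 76.9 (distal) and 75.2 (proximal), and chr18:9214102-9214690, at 58.5 (trunk), 36.9 (brain), 31.6 (distal) and 15.6 (proximal).

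Frizzled windows differed widely in how many of their sites were shared. Fzd8 had 6 of 7 sites called in all 4 tissues, Fzd5 7 of 10 and Fzd2 13 of 20, while Fzd7 had 2 of 17, Fzd10 2 of 9 and Fzd1 1 of 6. In the Fzd7 window 9 sites were trunk-only and 2 brain-only. After thinning the Fzd7 window held 10 sites and that of Fzd10 held 5. The strongest site of Fzd7 lay in its span, chr1:59483668-59484342, at 82.8 (trunk), 90.004 (brain), 83.3 (distal) and 81.7 (proximal). Fzd1 had no site above percentile 49.01 in any list, and its only site of all 4 tissues, chr5:4756201-4756642, ranked at 22.3 (trunk), 6.38 (brain), 4.16 (distal) and 24.95 (proximal). Fzd10 had its nearest site of all 4 tissues 26.2 kb from the span, at chr5:128574430-128574907, and 6 trunk-only sites.

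CTCF sites near the listed Frizzled starts ranked at 59.4 or lower in every list, and their tissues differed. No start was listed for Fzd2, Fzd3, Fzd6 or Fzd8, so sites at their starts could not be placed. Fzd4 had chr7:89404372-89404735, 202 bases into the gene and missing from trunk only, at 19.5 (brain), 5.46 (distal) and 2.97 (proximal). It had another site of proximal forelimb only, chr7:89403694-89403893, at 5.41. Tmem135 begins beside Fzd4 on the other strand, and its promoter window overlaps the first of these sites. Fzd1 had chr5:4757915-4758193, missing from distal forelimb only, at 14.9 (trunk), 14.3 (brain) and 13.7 (proximal), and the trunk-only site chr5:4758699-4759038 at 49.01. The site chr1:59481442-59481748, 593 bases upstream of Fzd7 and missing from brain only, was at 20.4 (trunk), 22.4 (distal) and 22.4 (proximal). Fzd9 had a trunk-only site, chr5:135251375-135251617, 454 bases upstream. Among the Frizzled genes with a listed start, Fzd5 alone had a start site of all 4 tissues. This was chr1:64737410-64737736, at 48.8 (trunk), 47.8 (brain), 55.7 (distal) and 59.4 (proximal).

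Lrp5 and Lrp6, the co-receptors, had 43 sites, and 25, or 58.1%, were called in all 4 tissues. Lrp5 had 12 sites in its span, and 9 of these were called in all 4 tissues. The leading sites were chr19:3699338-3700079 outside Lrp5, at 96.1 (trunk), 96.4 (brain), 95.9 (distal) and 95.8 (proximal), and chr6:134615134-134615920 near Lrp6, at 96.2 (trunk), 95.2 (brain), 91.6 (distal) and 93.5 (proximal). Their summits lay in the spans of Gm36608 and Mansc1, in that order. In the gene Lrp5, chr19:3586497-3587133 ranked at 90.5 (trunk), 88.9 (brain), 85.3 (distal) and 85.1 (proximal). Lrp5 had 9 trunk-only sites and no site of another tissue only. Lrp6 had 4 trunk-only sites and 1 brain-only site, chr6:134459287-134459538, at percentile 3.26. A site in Lrp6 was missing from distal forelimb only, chr6:134489559-134489886, at 39.2 (trunk), 15.2 (brain) and 33.7 (proximal). Trunk and brain shared chr19:3722018-3722270 near Lrp5, at 46.6 (trunk) and 31.2 (brain).

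The 4 Dkk genes had 39 sites, and 18, or 46.2%, were called in all 4 tissues. The leading 3 were in the window of Dkk3, of which chr7:112180017-112180520 ranked at 90.6 (trunk), 94.6 (brain), 97.6 (distal) and 95.5 (proximal). The others were chr7:112183161-112183784 and chr7:112084942-112085721. Dkk1, an antagonist of the limb bud and the forming head, had a site of 1069 bases over its start, chr19:30548607-30549675, at 74.7 (trunk), 67.1 (brain), 64.9 (distal) and 57.9 (proximal). A stronger site, chr19:30554515-30555163, lay 5.02 kb upstream of the gene, at 89.01 (trunk), 84.9 (brain), 77.5 (distal) and 79.6 (proximal). Beside it, chr19:30553767-30554122 was called in every tissue but brain, at 58.1 (trunk), 49.8 (distal) and 49.7 (proximal), and of the 10 member sites missing from brain only it had the highest lowest percentile. Sites of trunk and brain only were 3 of the 39, all in the Dkk4 window. They were chr8:22612798-22613125, at 57.3 (trunk) and 48.6 (brain), with chr8:22630158-22630549 and chr8:22593966-22594359. Sites of this pattern numbered 14 among the members, or 3.23%, against 5.46% of all union sites. Others of the 14 were chr11:103760999-103761277 in Wnt9b, at 59.5 (trunk) and 46.1 (brain), chr11:59232818-59233125 near Wnt3a, chr11:59345934-59346242 near Wnt9a, chr14:65249111-65249422 near Fzd3 and chr7:89370930-89371253 near Fzd4. Dkk2 had chr3:132071022-132071390, missing from proximal forelimb only, and chr3:132074146-132074496, missing from brain only. In Dkk3, chr7:112133299-112133651 was missing from distal forelimb only, at 50.3 (trunk), 36.6 (brain) and 31.4 (proximal).

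The secreted Frizzled-related antagonists held the most and the least shared windows of all members. Sfrp5 had 7 sites, and all 7 were called in all 4 tissues. The first was chr19:42151789-42152629, at 97.7 (trunk), 96.6 (brain), 98.8 (distal) and 99.03 (proximal). Close to it in rank were chr19:42190324-42191120, at 98.96 (trunk), 96.4 (brain), 97.8 (distal) and 94.4 (proximal), and chr19:42165916-42166708, at 97.7 (trunk), 96.02 (brain), 93.9 (distal) and 95.8 (proximal). None overlapped the gene, and the nearest, chr19:42197071-42197495, was 0.476 kb from its span. Sfrp1 had 6 sites, 5 of them trunk-only and the other, chr8:23367496-23368158, missing from distal forelimb only, at 52.5 (trunk), 13.3 (brain) and 6.47 (proximal). The strongest trunk-only site of Sfrp1 was chr8:23451934-23452329, at percentile 44.2 of the trunk list. No peak of the distal forelimb list lay in the Sfrp1 window.

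Frzb, an antagonist of forming cartilage, had 9 sites in 5 patterns, and 5 sites after thinning. Its only site of all 4 tissues lay in the gene, chr2:80443934-80444571, at 83.5 (trunk), 69.4 (brain), 65.9 (distal) and 70.1 (proximal). Distal forelimb alone had chr2:80368719-80368920, chr2:80389285-80389666 and chr2:80447259-80447460, at percentiles 12.8, 6.45 and 3.29. The last covered the start of Frzb, and its summit letters are in capitals in the Frzb sequence. Brain alone had chr2:80424479-80424678, and trunk alone had 3 sites. Trunk and brain shared chr2:80450849-80451089, at 17.3 (trunk) and 13.3 (brain). Sfrp2 had 7 of 12 sites in all 4 tissues. In the Sfrp2 window chr3:83797146-83797490 was missing from distal forelimb only, at 57.8 (trunk), 39.8 (brain) and 33.4 (proximal), and chr3:83777965-83778331 from proximal forelimb only. Sfrp4 had 5 of 7 sites in all 4 tissues and a brain-only site, chr13:19592184-19592450.

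Sites called in posterior trunk only were, in the lists as deposited, the largest group after the shared ones, with 114 sites, or 26.3% of member sites, against 28.4% of all union sites. In the windows of all protein-coding genes the share was 27.5%. Member sites of this kind were found in the windows of 38 of the 40 genes, with Fzd8 and Sfrp5 the exceptions. Over all protein-coding genes, windows without any site included, 80.7% held a trunk-only site. The median trunk percentile of the 114 was 22.2. The highest was chr19:44514381-44514790 just past Wnt8b, at 64.0, with an authors' fold of 5.12. The next 5 were chr7:89401166-89401534 and chr7:89421027-89421300 on both sides of Fzd4, chr1:59453384-59453702 upstream of Fzd7, chr3:83736769-83737208 near Sfrp2 and chr5:4758699-4759038 at Fzd1. After thinning with its cutoff, 55 of the 114 were still trunk-only and 59 were no longer called. Of the 59, 8 did not reach the cutoff in the lists as deposited, and 51 passed it there but not after thinning. Trunk-only member sites in all numbered 61 in the thinned lists, or 16.9% against 20.8% of all union sites there. In lists of equal length, trunk-only sites were 13, or 4.05% of member sites, against 6.48% of all union sites, and were then fewer than the 16 of distal forelimb only and the 14 of proximal forelimb only.

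Brain alone had 12 member sites, or 2.76% against 5.92% of all union sites and 4.84% of the sites in protein-coding gene windows. The strongest was chr7:98789387-98789676 upstream of Wnt11, at percentile 20.8 of the brain list, with a second such site, chr7:98814914-98815143, nearer the gene. The others of the 12 beyond those of Wnt7b, Lrp6, Frzb and Sfrp4 were chr18:9171036-9171251 near Fzd8, chr1:59491718-59491954 and chr1:59464076-59464288 near Fzd7, chr19:30535394-30535713 near Dkk1 and chr15:39017819-39018070 in Fzd6. Thinning with its cutoff left 3 of the 12, namely 1 of the pair in Wnt7b and both of Wnt11. Brain-only sites in all numbered 3 in the thinned lists, or 0.833% against 2.58% of all union sites there. Distal forelimb alone had 8 sites, or 1.84% against 3.11% of all union sites and 2.52% in protein-coding gene windows. They were led by chr3:104984963-104985252 upstream of Wnt2b, at 18.3, and included chr11:103795690-103795925 in Wnt3, chr11:59356100-59356358 near Wnt9a and chr19:30504182-30504381 near Dkk1. The distal forelimb list has the lowest background, so thinning removed no reads from it. The cutoff of the thinned lists left 6 of the 8, and the other 2 did not reach it as deposited. Distal-only sites in all numbered 7 in the thinned lists, or 1.94% against 3.57%. In lists of equal length distal-only sites were 16, or 4.98% against 6.14%. Proximal forelimb alone had 4, or 0.922% against 2.23% of all union sites and 1.91% in protein-coding gene windows. Besides those of Wnt2 and Fzd4 these were chr1:74767028-74767249 in Wnt6, at 11.9, and chr3:132141350-132141557 in Dkk2. Thinning left 2 of the 4, while proximal-only sites in all numbered 9 in the thinned lists, or 2.5% against 2.70%, and 14 in lists of equal length, or 4.36% against 5.83%. None of these 24 sites, as deposited, ranked above percentile 20.8 of its list. No member site was called in both forelimb parts only, a pattern of 0.332% of all union sites.

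Sites missing from brain only numbered 10, or 2.304% of member sites, against 1.47% of all union sites. Besides those already named they were chr11:59336508-59336853 in the windows of Wnt3a and Wnt9a, at 42.1 (trunk), 36.2 (distal) and 39.9 (proximal), chr11:102629824-102630116 and chr11:102556462-102556803 near Fzd2, chr7:98841747-98842121 in Wnt11, chr7:98870713-98871121 past it, and chr6:22298180-22298432 in Wnt16. Wnt11 thus had a pair of sites missing from brain only and a pair called in brain only. Distal forelimb alone lacked 10 member sites, or 2.304% against 2.85%. Among them were chr18:34516110-34516595 near Wnt8a, chr1:74733585-74734037 near Wnt6, chr5:4773335-4773641 near Fzd1 and chr11:102638898-102639289 near Fzd2. Proximal forelimb alone lacked 11, or 2.53% against 2.91%. These included chr15:98725996-98726349 near Wnt10b, at 55.99 (trunk), 29.7 (brain) and 34.4 (distal), chr6:119395021-119395374 near Wnt5b, chr11:103840872-103841249 near Wnt3, chr1:74814098-74814414 near Wnt10a, chr1:59441075-59441434 near Fzd7 and chr5:128594143-128594571 near Fzd10.

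Distal and proximal forelimb lists have nearly the same length and depth, so member sites were set side by side there by rank. Of 235 member sites called in both parts, the median difference of percentile, distal minus proximal, was -0.0094, and 14.5% differed by over 10, against 19.95% of the 54204 such union sites. Ranked higher in distal forelimb were chr19:42197071-42197495 near Sfrp5, at 56.6 (trunk), 50.5 (brain), 48.4 (distal) and 15.2 (proximal), and chr14:65266041-65266404 beside Fzd3, at 63.1 (trunk), 53.6 (brain), 40.7 (distal) and 10.5 (proximal). Their summit pileups were 47 and 39 reads in distal forelimb, against 25 and 20 in proximal forelimb. Ranked higher in proximal forelimb, beside the Wnt2 site, was chr15:38978553-38979001 near Fzd6, at 39.8 (trunk), 57.2 (brain), 29.7 (distal) and 61.1 (proximal), with a pileup of 28 reads in distal forelimb, against 67 in proximal forelimb. A total of 9 sites differed by over 20, or 3.83% against 4.54% of union sites. Across the 222 sites of all 4 tissues, Spearman's rho of the ranks was 0.963 for this pair and 0.912 for trunk and brain. Over the 51657 such union sites it was 0.959 and 0.917. The points share libraries and depth, so these values are a description.

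**Figure D5:**
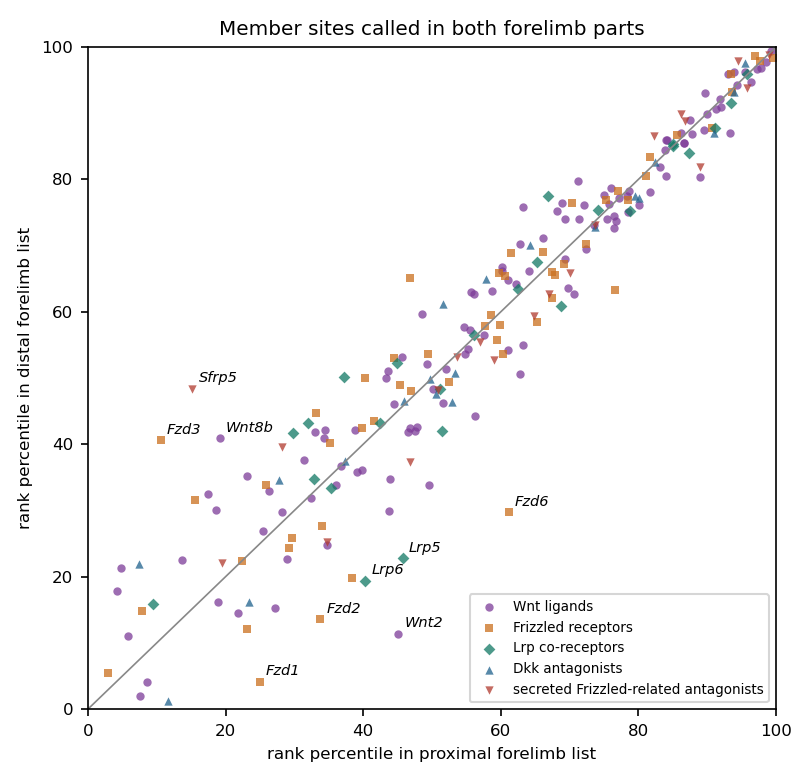
Rank percentile of the 235 member sites called in both forelimb parts, distal forelimb against proximal forelimb, by group of genes. The line marks equal rank, and names stand beside the 9 sites that differ by over 20, among them those of Sfrp5 and Fzd3 above the line and Wnt2 and Fzd6 below it.

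Strong sites shared by all lists were found in the windows of 14 members, each with a peak above percentile 90 in all 4 lists. They were Wnt2b, Wnt4, Wnt5a, Wnt5b, Wnt7b, Wnt8a, Wnt8b, Fzd2, Fzd3, Fzd6, Lrp5, Lrp6, Dkk3 and Sfrp5. Single sites above 90 in every list numbered 20, or 4.61% of member sites, against 3.99% of all union sites. Of the sites called in all 4 tissues, they made up 9.01% among members and 9.41% among all union sites. How many windows of other genes hold such a site was not counted. In Wnt5b, a ligand of cartilage, 2 such sites lay within the gene, chr6:119444100-119444596, at 92.7 (trunk), 94.9 (brain), 96.7 (distal) and 97.3 (proximal), and chr6:119471940-119472748, at 97.7 (trunk), 98.8 (brain), 95.8 (distal) and 92.98 (proximal).

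Other genes of the pathway had a similar range. The 38 genes for secretion, agonists, further receptors and antagonists, and proteins inside the cell had 513 sites in their windows, with 47.6% called in all 4 tissues and 37.4% in 1 tissue only. The median was 11 sites in a median window of 120 kb for the members, and 13.5 sites in 166 kb for the 38 genes. The median densities were 8.78 sites per 100 kb for the members and 7.48 for the 38 genes. Genes inside the cell, such as Axin2, a target and brake of the pathway with 6 of 12 sites in all 4 tissues, had 51.2% shared sites. Receptors and their turnover genes had 41.4%, with 17 of 26 sites at Lgr6 and 5 of 17 at Lgr5, both R-spondin receptors. Wls, which carries Wnt proteins to the cell surface, had 4 sites and none of all 4 tissues, as in Sfrp1.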

How the data were processed

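The study profiled CTCF by ChIP-seq in 4 tissues of mouse embryos, with 1 library each, and grouping followed the tissue in the labels. The submitters' processing notes list MACS2 2.1.1.20160309, Bowtie2 2.3.5, cutadapt 1.16 and SAMtools 1.9 with build mm10; options and any control library are not stated there. Each deposited list gives, as computed by the authors' caller, a fold (the ratio of summit pileup to local background), −log10 p-values and q-values, a score of 10 times the −log10 q, and the summit position. The lists reach down to a q of 0.05 and hold no read totals, so absolute depth is unknown.

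Rows with the same interval were merged to the strongest summit, and chromosomes 1 to 19, X and Y were kept. Percentiles rank peaks by p within their list. A whole pileup and a local background were recovered for every row from fold and p, which they return within 0.00031 on the −log10 scale, and the lowest background gave relative depth. For equal depth, pileups were thinned binomially (1 seeded draw) to the lowest background, keeping peaks with a −log10 p of 5 or more. Gene spans, starts and promoter letters came from RefSeq on GRCm38.p6. The joining of peaks and the recovery of pileups were tested on simulated data. Python 3.11.15, numpy 2.4.6, pandas 2.3.3, scipy 1.17.1 and matplotlib 3.10.9 were used. No test was run across libraries. Members, lists and the rule for named sites were chosen with earlier results of these data known. That rule took, per group of genes, the 3 sites of all 4 tissues with the highest lowest percentile, sites of 1 tissue or missing from 1, sites of trunk and brain only, and sites over starts. Sites named beyond it in the accounts of single genes, starts, gene pairs and forelimb ranks were chosen after their values were seen.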

Additional observations from a re-analysis of the deposited data

How the results depend on the processing

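The number of member sites called in all 4 tissues was 222 and stayed between 212 and 222 when the −log10 q had to reach 5 or 3, in lists of equal length, after thinning, with the cutoff of the thinned lists (−log10 p of at least 5) and no thinning, and when joined peaks had to share 0.5 of the shorter peak. Without the posterior trunk library, 226 were called in the other three tissues. Sites called in 1 tissue only numbered 138 as deposited, 80 after thinning with its cutoff, 128 with that cutoff alone, 47 in lists of equal length and 62 without posterior trunk. Windows of 10 kb gave 106 sites of all 4 tissues, 66 of 1 tissue and a median of 4.5 per gene, and windows of 100 kb gave 335, 244 and 20, which follows from window length. After thinning, 35 of 40 genes kept a site count within 1.5 times the deposited one, and the windows that did not were those of Wnt7a with 3 sites, Fzd7 with 10, Fzd10 with 5, Dkk1 with 3 and Frzb with 5. With the cutoff alone, all 40 did. The cutoff alone was chosen after seeing the data. The share of member sites called in all lists stood above that of all union sites in each of these settings. It was lowest in windows of 100 kb, at 46.7% against 42.4% of all union sites. The windows of all protein-coding genes, with 45.4%, were taken with 50 kb on each side only. Sites at low ranks lie near the calling threshold. No paired analysis was possible because no tissue has a second library, and for the same reason no replicate could be left out.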
